A study of Mus musculus with 4 samples.

Results

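Expression of 10 genes that mark or serve splenic macrophages was examined in spleens of mice lacking the transcription factor Nrf2. The genes were Csf1r, Spic, Adgre1, Cd68, Siglec1, Marco, Msr1, Mrc1, Cd5l and Mertk, chosen by name, and every probe set assigned to them alone was used. All 10 were on the array, with 14 of its 12422 gene probe sets, and 9 of these 14 were bright enough to test among 7453 tested in all. Those 9 covered 9 of the 10 genes, all but Siglec1.

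Total RNA came from spleens of female mice aged 5 months, 2 samples of Nrf2 knockout (nrf2 -/-) and 2 of wild-type (nrf2 +/+) littermates. Both genotypes were bred from heterozygotes, which descended from nrf2 +/+ mice (C57B6/SJL) and nrf2 -/- mice (C57B6/129SVJ), so both carried mixed backgrounds. The labels name no treatment and place this age before severe autoimmune disease, and they name no Cre driver or promoter for the knockout. It is not stated if each array carried a single animal or pooled RNA, so p-values reflect the spread of these samples alone, which could be technical. The spleen is a mixture of cells, and in such bulk RNA fewer macrophages and less RNA per macrophage cannot be told apart.

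Macrophages of the spleen clear aged red cells, dying lymphocytes and blood-borne particles. Those of the red pulp recycle iron and depend on the transcription factor SpiC, while those of the marginal zone, around the white pulp, carry scavenger receptors such as Marco that bind bacteria and modified lipoproteins. Macrophages at both sites need signalling through the CSF-1 receptor, and Nrf2 itself drives antioxidant and detoxification genes in many cell types, macrophages among them.

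Nfe2l2, the gene of Nrf2, read 202 and 178.6 in the knockout arrays against 3537 and 6321 in the wild-type arrays, low where the labels place the knockout (limma adjusted p = 0.0199), though the labels do not give its position relative to the deletion. The arrays were less even in other respects. Wild-type replicate 1 correlated with the other 3 arrays at 0.849 to 0.851, a correlation across probe sets and so not over independent replicates, while the highest correlation of each other array lay between 0.941 and 0.947. Gapdh control probe sets, whose 3' to 5' signal ratio follows RNA integrity, gave ratios of 88.3 and 8.07 for wild-type replicates 1 and 2 beside 25.5 and 34.8 for the knockout arrays. The beta-actin ratios were 14.4 and 8.86 for wild-type replicates 1 and 2 and 19.3 and 16.1 for the knockout arrays, so by that control wild-type replicate 1 was not the highest. Values without wild-type replicate 1 are given beside those that moved most when it was left out.

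The macrophage genes showed no common direction between the genotypes. Cd5l and Marco, which encode a secreted and a surface scavenger protein, read lower in both knockout arrays than in both wild-type arrays, by 1.86-fold and 1.74-fold. Spic read 1.22-fold higher, and Csf1r was nearly level in all 4 arrays. Of the 9 tested probe sets none passed the threshold of an adjusted p under 0.05 (limma, Benjamini-Hochberg over all tested probe sets), against 4 of 7453, or 0.0537%, in all. None had an unadjusted p under 0.05 either, against 1.74% of all tested probe sets. By mean, 5 read higher (53.7% of all tested probe sets did) and 4 lower (46.3%) in knockout spleen, with a median difference of 0.06 on the log2 scale beside 0.04 over all tested probe sets. The groups did not overlap in 3 lower probe sets (Cd5l, Marco and Csf1r), against 12.2% of all tested probe sets, and in 1 higher one (Spic), against 14.3%.

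**Figure D1:**
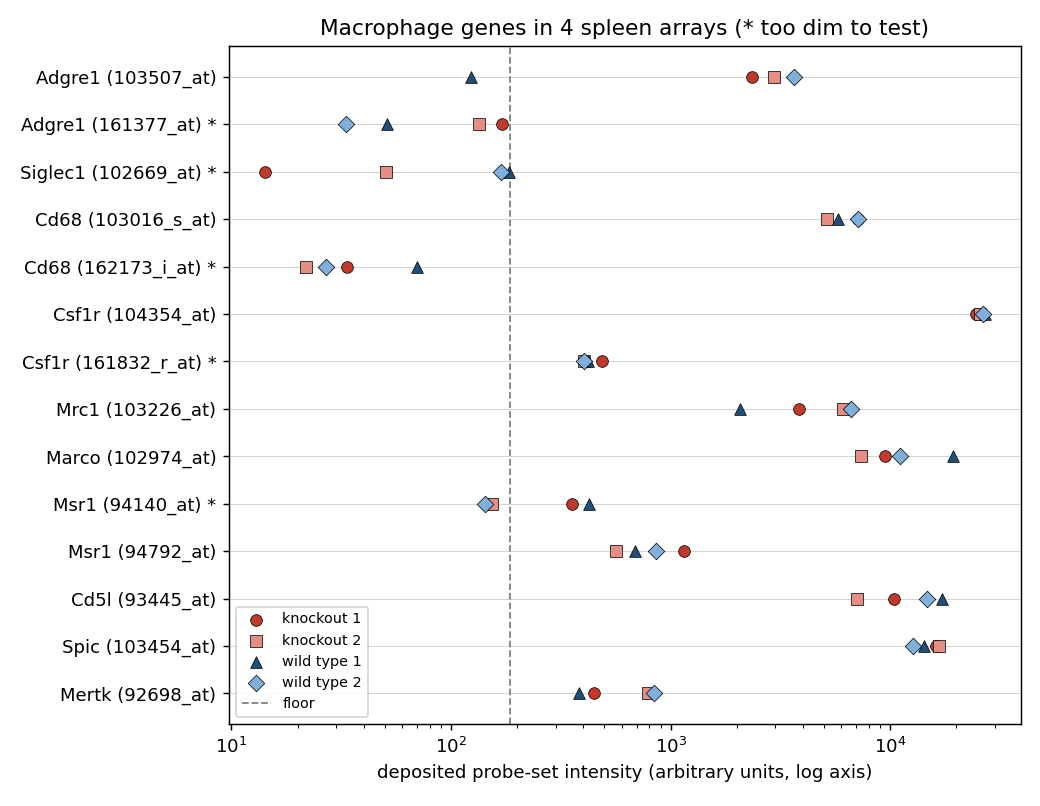
Deposited intensity (log axis, arbitrary units) of each of the 14 macrophage probe sets in the 4 arrays, with 1 point for each array and a dashed line at the floor of 185. Cd5l and Marco have both wild-type points to the right of both knockout points, and the Adgre1 probe set 103507_at has a single low point, wild-type replicate 1 at 123.5.

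The precision of these comparisons is limited by 2 arrays per group. The standard errors of the 9 differences ran from 0.40 to 1.15 on the log2 scale, so the 95% confidence intervals were wide. That of Csf1r, for example, ran from -1.03 to 0.85, because the fit borrows the spread of all probe sets of like intensity, although the 4 Csf1r values lay close together. A p above the threshold here does not show that a gene was equal in both genotypes.

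**Figure D2:**
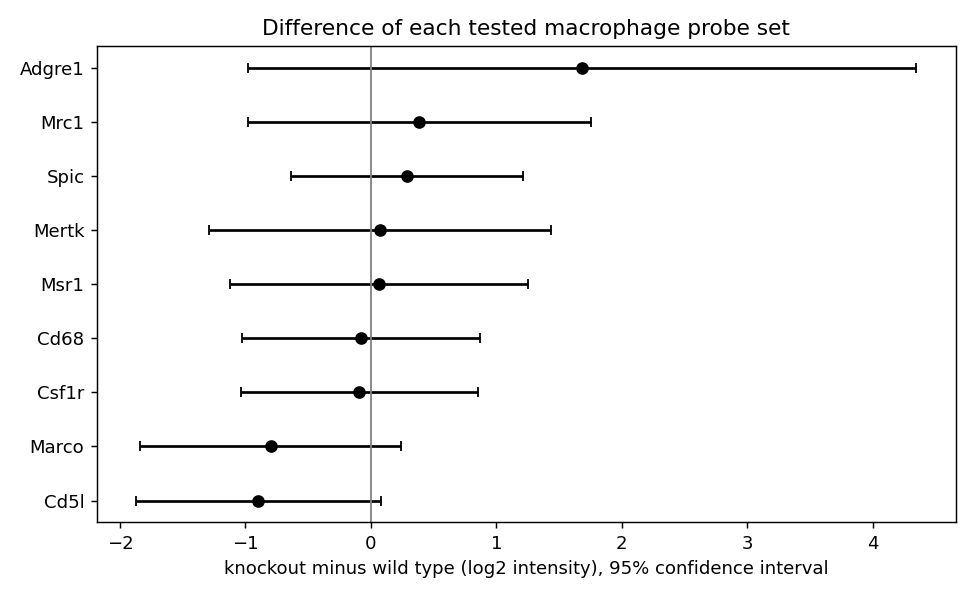
Knockout minus wild-type difference (log2 intensity) of each of the 9 tested macrophage probe sets, with its 95% confidence interval from limma over 2 arrays per group. All 9 intervals cross 0, that of Cd5l reaching from -1.87 to 0.08 and that of Adgre1 from -0.98 to 4.35.

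The receptor and the transcription factor of the lineage came first. Csf1r encodes the receptor for the growth factors CSF-1 and IL-34, on which most tissue macrophages depend. Its probe set 104354_at read 24559 and 25539 in knockout replicates 1 and 2 and 26915 and 26459 in wild-type replicates 1 and 2. Both knockout values lay below both wild-type values, yet by little, with a log2 difference of -0.09 (SE 0.41, adjusted p = 0.996). With quantile normalization the difference was 0.018, so its direction depends on the scaling. A dimmer Csf1r probe set, 161832_r_at, read 486.1, 405.4, 422 and 402.7 in the same order and was too dim to test, and there the groups overlapped.

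Spic encodes SpiC, an Ets family factor required for red pulp macrophages and induced by haem. It read 16190 and 16623 in the knockout arrays, compared with 14314 and 12660 in the wild-type arrays. The knockout arrays were alike and both above the wild-type arrays, with a log2 difference of 0.29 (SE 0.40, 95% confidence interval -0.64 to 1.21, adjusted p = 0.992). The difference kept its sign with each array left out, from 0.20 to 0.37. Spi1, the gene of the related factor PU.1, which directs myeloid development, also read higher in both knockout arrays, at 3829 and 2779 against 2349 and 2452 (log2 0.44, SE 0.40, adjusted p = 0.992).

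Among general macrophage markers, Adgre1 showed the widest spread. It encodes an adhesion receptor of the G protein-coupled class that serves as the standard surface marker of mouse macrophages, strong in red pulp and weak or missing in the marginal zone. Probe set 103507_at read 2350 and 2964 in the knockout arrays, but 123.5 and 3644 in wild-type replicates 1 and 2. Wild-type replicate 1 alone was low, and below the floor of 185. Against that floor it lay at least 19.6-fold below the other wild-type array and at least 12.7-fold below the lowest of the other 3. The log2 difference of 1.68 (SE 1.15, adjusted p = 0.992) rested on this 1 value, and without wild-type replicate 1 it was -0.47. Without wild-type replicate 2 it was 3.83 (adjusted p = 0.0583). A second Adgre1 probe set, 161377_at, read 171 and 134.1 with the knockout samples and 51.2 and 33.1 with the wild-type ones. All 4 of these values lay below the floor of 185, so they carry no fold.

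Cd68 encodes a heavily glycosylated protein of late endosomes and lysosomes in all mononuclear phagocytes. Its probe set 103016_s_at read 7172 and 5167 in the knockout arrays, compared with 5763 and 7167 in the wild-type arrays. The groups overlapped fully, with a difference of -0.08 (SE 0.41, adjusted p = 0.997). The letters s, i, r or f in a probe set name mark a departure from the usual probe design, such as probes shared with related sequences, and the tested probe set of Cd68 carries one, as do those of Pparg, Anxa1 and Fcer1g. The other Cd68 probe set, 162173_i_at, read between 21.8 and 70 in all 4 arrays, below the floor. Siglec1 encodes sialoadhesin, a sialic acid-binding lectin found in the spleen on metallophilic macrophages at the inner edge of the marginal zone. It read 14.2 and 50.5 in the knockout arrays, compared with 183.2 and 169.4 in the wild-type arrays. The knockout values were the lower ones, but all 4 lay below the floor, so Siglec1 was not detectable above it in either genotype and no fold was taken.

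The scavenger receptors were next. Marco encodes a class A receptor with a collagenous stalk, found in spleen chiefly on marginal zone macrophages. It read 9504 and 7391 in the knockout arrays, compared with 19298 and 11035 in the wild-type arrays. Both knockout arrays were below both wild-type arrays, while replicate 1 exceeded replicate 2 of the wild type by 1.75-fold. The log2 difference was -0.80 (SE 0.45, 95% confidence interval -1.84 to 0.24, adjusted p = 0.992), a level 1.74-fold lower. Leaving out wild-type replicate 1 gave -0.40, and leaving out replicate 2 gave -1.20 (adjusted p = 0.0897), so that the high value of wild-type replicate 1 set much of its size.

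Cd5l encodes a secreted scavenger protein, also called apoptosis inhibitor of macrophages, which is made by tissue macrophages and circulates bound to IgM. It read 10401 and 7048 in the knockout arrays, compared with 17294 and 14683 in the wild-type arrays. Every knockout value was below every wild-type value, and the closest pair, knockout replicate 1 and wild-type replicate 2, still differed by -0.50 on the log2 scale. The difference was -0.90 (SE 0.42, 95% confidence interval -1.87 to 0.08, unadjusted p = 0.0671, adjusted p = 0.992), a level 1.86-fold lower. Without wild-type replicate 1 it was -0.78, and with each array left out in turn it ran from -1.18 to -0.62. Quantile normalization, which gives all arrays the same distribution of values, left -0.87 for Cd5l and -0.75 for Marco.

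The promoters of Cd5l and Marco are shown because both genes read lower in knockout spleen, and that of Spic because it read higher. Each sequence is the stretch of 250 bases before the transcription start, on the strand of the gene, from RefSeq on GRCm38.p6. It was searched on both strands for the core of the antioxidant response element, through which Nrf2 binds, written TGACNNNGC, and for the core of the PU.1 and SpiC site, written GAGGAA. Capitals mark the matches. Cd5l lies at chr3:87357631-87357880 on the + strand, Marco at chr1:120505025-120505274 on the - strand and Spic at chr10:88683024-88683273 on the - strand.
Cd5l: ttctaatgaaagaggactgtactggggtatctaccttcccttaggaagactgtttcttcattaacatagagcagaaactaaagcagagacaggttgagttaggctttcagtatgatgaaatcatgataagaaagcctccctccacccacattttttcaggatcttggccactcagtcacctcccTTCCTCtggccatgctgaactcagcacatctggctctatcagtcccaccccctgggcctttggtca
Marco: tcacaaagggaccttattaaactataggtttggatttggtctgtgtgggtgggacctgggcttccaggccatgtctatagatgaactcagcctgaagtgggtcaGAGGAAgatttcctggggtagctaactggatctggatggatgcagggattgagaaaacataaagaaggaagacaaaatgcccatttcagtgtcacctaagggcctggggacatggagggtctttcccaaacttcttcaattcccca
Spic: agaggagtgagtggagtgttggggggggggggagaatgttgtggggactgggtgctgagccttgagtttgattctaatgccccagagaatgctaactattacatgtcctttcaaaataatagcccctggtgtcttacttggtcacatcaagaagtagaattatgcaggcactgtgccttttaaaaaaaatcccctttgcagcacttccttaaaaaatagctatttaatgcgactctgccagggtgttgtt
None of these 3 windows held the antioxidant response element core, which 10.2% of all 32851 promoter windows of this length held. The GAGGAA core was found 1 time before Marco, beginning 146 bases before the start on the gene's strand. Before Cd5l it was found 1 time, on the opposite strand, beginning 66 bases before the start. It was not found before Spic, and 23.3% of all windows held it. Of the 10 genes 6 had a promoter entry. Among the other 3, Mrc1 held 3 GAGGAA matches, Cd68 held 1 and Mertk held 0, and none held the antioxidant response element core. A match or its absence in these letters says nothing about binding in these spleens.

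Msr1 encodes the other classical class A scavenger receptor, which takes up modified lipoproteins. Its probe set 94792_at read 1147 and 564.8 in the knockout arrays, compared with 689.7 and 860.5 in the wild-type arrays. The wild-type values lay between the knockout values, which differed by 2.03-fold, and the log2 difference was 0.06 (SE 0.51, adjusted p = 0.997). The second Msr1 probe set, 94140_at, read 354.5 and 153.1 with the knockout samples and 424 and 142.6 with the wild-type ones, replicate 1 first. It was too dim to test, with replicate 2 of each genotype below the floor, so its values carry no fold. In the wild-type arrays replicate 1 was the higher on this probe set and the lower on the other.

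Mrc1 encodes the mannose receptor, an endocytic lectin that clears glycoproteins and, in spleen, is found on red pulp macrophages. It read 3843 and 6093 in the knockout arrays, compared with 2079 and 6610 in the wild-type arrays. The groups overlapped, and wild-type replicate 1 was again the lowest, 3.18-fold below wild-type replicate 2. The log2 difference was 0.38 (SE 0.59, adjusted p = 0.992), and it was -0.45 without wild-type replicate 1.

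Mertk encodes a receptor tyrosine kinase of the family with Axl and Tyro3, through which macrophages take up apoptotic cells bridged by Gas6 and protein S. It read 449.4 and 788.5 in the knockout arrays, compared with 381.8 and 840.4 in the wild-type arrays. In each genotype replicate 1 was the lower array, and the groups overlapped. The log2 difference of 0.07 (SE 0.59, adjusted p = 0.997) was -0.50 without wild-type replicate 1.

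Wild-type replicate 1 thus stood at both ends of these genes. It was the lowest of the 4 arrays for Adgre1, Mrc1 and Mertk, and the highest for Csf1r, Marco and Cd5l, 3 of 9 each way, against 39.2% and 37.3% of all tested probe sets. Between the wild-type arrays the median gap of the 9 probe sets, whatever its sign, was 0.32 on the log2 scale, beside 0.64 over all tested probe sets. Between the knockout arrays these medians were 0.47 and 0.30.

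**Figure D3:**
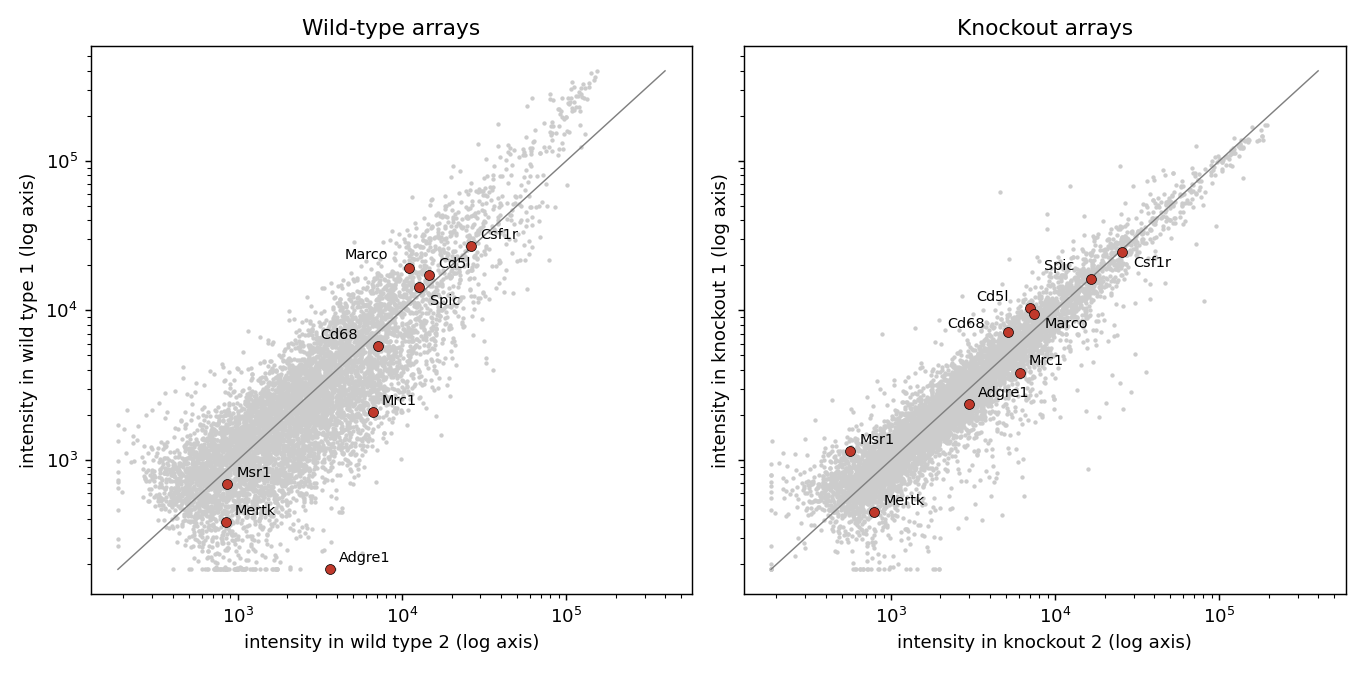
Intensity of the 7453 tested probe sets (grey) and the 9 macrophage probe sets (red) in replicate 1 against replicate 2 of each genotype, on log axes with values below 185 raised to that floor and a line of equality. Adgre1 and Mrc1 lie far below the line in the wild-type panel, where the grey cloud is also wider than in the knockout panel.

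Set against wild-type replicate 2 alone, most of the macrophage genes read lower in knockout spleen. Without wild-type replicate 1, 8 of the 9 tested probe sets had a lower mean in knockout spleen, against 49% of all tested probe sets, and 1, Spic, a higher mean, and the median difference was -0.40, beside 0.0062 over all tested probe sets. Both knockout arrays lay below wild-type replicate 2 in 6 of the 9 (Adgre1, Csf1r, Mrc1, Marco, Cd5l and Mertk), against 28.9% of all tested probe sets, and above it in 1 of the 9 (Spic), against 31.9%. None of the 9 passed in that fit, and 0 had an unadjusted p under 0.05, against 3.06% in all. That comparison rests on 1 wild-type array, which is assumed in the fit to vary like the knockout arrays and had the lowest Gapdh and beta-actin 3' to 5' ratios of the 4 arrays. Without wild-type replicate 2 the median was 0.20, and 4 of the 9 had an unadjusted p under 0.05 (Adgre1 and Mrc1 higher, Marco and Cd5l lower), where 29.4% of all tested probe sets did.

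**Figure D4:**
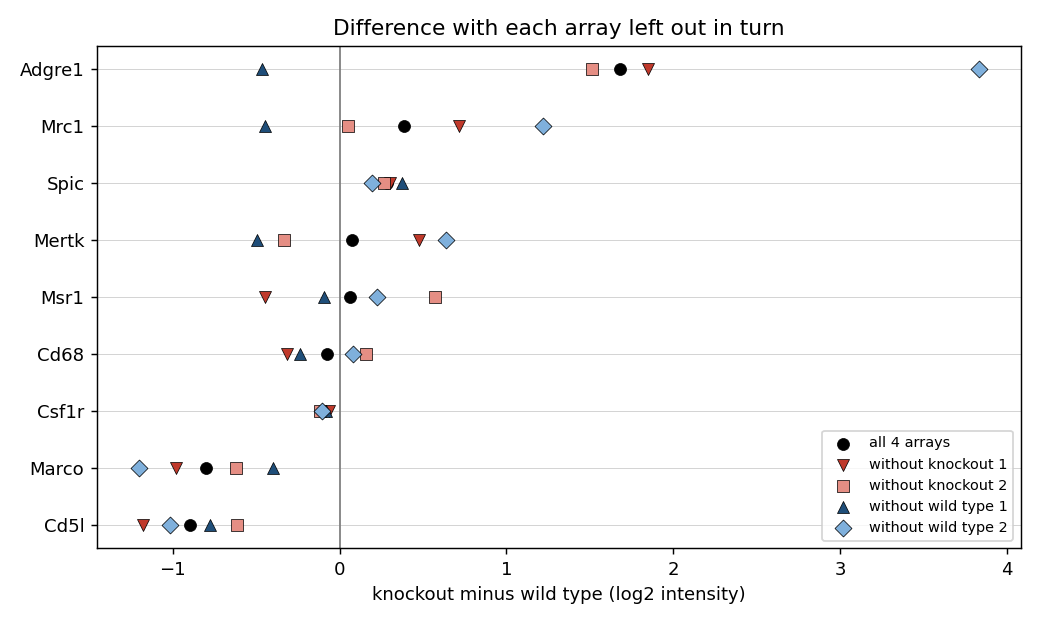
Knockout minus wild-type difference (log2 intensity) of the 9 tested macrophage probe sets over all 4 arrays (black) and with each array left out (coloured symbols). Cd5l and Marco lie below 0 and Spic above 0 in every fit shown. Csf1r also lies below 0 in each, by little, from -0.12 to -0.06 with an array left out. Adgre1, Mrc1, Mertk, Msr1 and Cd68 cross 0 when an array is left out.

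Related macrophage genes were read from 5 lists, on the brightest tested probe set of each gene. Of all tested probe sets, 53.7% read higher and 46.3% lower by mean in knockout spleen. Among growth factors and regulators 7 of 9 tested genes read higher and 2 lower, with a median difference of 0.44, and none passed the threshold. Wild-type replicate 1 was the lowest array for 8 of those 9, against 39.2% of all tested probe sets, and the median was 0.027 without it. Csf2ra, a receptor chain for GM-CSF, read 2923 and 1907 in the knockout arrays, compared with 688.3 and 1827 in the wild-type arrays (log2 1.07, SE 0.55, adjusted p = 0.992), a difference that was 0.37 without wild-type replicate 1. Pparg, a lipid-sensing nuclear receptor, gave 1.30 (SE 0.74, adjusted p = 0.992), and 0.32 without that array.

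Among other scavenger and lectin receptors 4 of 10 tested genes read higher and 6 lower (median -0.06, and 0.074 without wild-type replicate 1), with none past the threshold. Fcna, which encodes ficolin A, a secreted lectin made by macrophages of spleen and liver, read 7101 and 7828 in the knockout arrays, compared with 15009 and 10172 in the wild-type arrays. Like Marco and Cd5l it was lower in both knockout arrays and highest in wild-type replicate 1, with a difference of -0.73 (SE 0.42, adjusted p = 0.992) that was -0.45 without that array. Scarb1, the class B receptor for high-density lipoprotein, read 2687 and 2842 against 899.6 and 2300, and Clec4a2, a C-type lectin receptor, 1850 and 1266 against 854.4 and 951. Both were higher in both knockout arrays, with differences of 0.94 and 0.76, and Scarb1 gave 0.27 without wild-type replicate 1.

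Genes of apoptotic cell uptake read higher in 9 of 13 tested cases and lower in 4 (median 0.19, and 0.051 without wild-type replicate 1), and none passed. Anxa1, the annexin that binds exposed phosphatidylserine and is abundant in neutrophils, read 34123 and 33215 in the knockout arrays, compared with 19930 and 13987 in the wild-type arrays (log2 1.01, SE 0.43, unadjusted p = 0.0451, adjusted p = 0.992). Pros1, encoding the Mertk ligand protein S, differed by 0.71, and Mfge8, a bridging protein between apoptotic cells and integrins, by -0.66 (adjusted p = 0.992 for both). Without wild-type replicate 1 these were 0.20 and -0.33. The Mertk relative Axl and the ligand gene Gas6 differed by -0.23 and -0.08, and Axl turned to 0.28 without wild-type replicate 1.

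Iron recycling genes of the red pulp read higher in 5 of 8 tested cases and lower in 3 (median 0.34, and 0.045 without wild-type replicate 1), and none passed. The haem oxygenase gene Hmox1 read 19357 and 25098 in the knockout arrays and 4840 and 32609 in wild-type replicates 1 and 2, the same order of the 4 arrays as for Adgre1, Mrc1 and Mertk. Its difference of 0.81 was -0.57 without wild-type replicate 1. Vcam1, an adhesion molecule of red pulp macrophages, gave 0.66, and 0.036 without that array. Blvra, a biliverdin reductase, gave -0.56, and -0.11 without it.

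Lysosomal and general phagocyte genes read higher in 11 of 17 tested cases and lower in 6 (median 0.28), with none past the threshold. The smallest p-values were those of Fcer1g, the signalling chain of Fc receptors, at 0.91 (SE 0.46), Ctsl, cathepsin L, at 0.98 (SE 0.60), and Ctss, cathepsin S, at 0.87 (SE 0.54), each with an adjusted p of 0.992. Without wild-type replicate 1 these were 0.90, 0.090 and 0.19. The median of this list was 0.10 without wild-type replicate 1.

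Markers of other cells in the spleen were read in the same way, and none of them passed the threshold. Their counts of higher and lower genes stand beside the same 53.7% and 46.3% of all tested probe sets. Their part in the macrophage values was not tested. None of the marker genes on the array lay below the floor in all 4 arrays. An unadjusted p under 0.05 (limma) was given by 5 of 11 tested neutrophil, 2 of 4 platelet and 6 of 7 exocrine pancreas genes. It was also given by 2 of 9 B cell, 2 of 8 T cell and 1 of 8 erythroid genes, against 1.74% of all tested probe sets. No monocyte, dendritic cell or stroma and endothelium marker gave one. Neutrophil markers read higher in 11 of 11 tested genes, with a summed intensity of 534025 and 594647 in the knockout arrays, compared with 714757 and 178185 in the wild-type arrays, so the sums overlapped. Monocyte markers, the nearest in kind to macrophages, read higher in 3 of 4, with sums of 58239 and 50177 against 18476 and 55382. Most of each monocyte sum was Plac8, at 49028 and 41232 against 12987 and 47214. Dendritic cell markers read higher in 4 of 10, with sums of 60596 and 41771 against 50252 and 44312. Lymphocyte markers read lower, in 7 of 9 B cell and 7 of 8 T cell genes. Their sums were 176216 and 144188 against 305343 and 172794 for B cells, which overlapped, and 35260 and 29222 against 59209 and 40030 for T cells. Without wild-type replicate 1 the B cell median went from -0.49 to -0.24 and the T cell median from -0.40 to -0.30. Exocrine pancreas markers read lower in 6 of 7, with sums of 9310 and 10922 against 81790 and 21128. These sums were separate between the genotypes and highest in wild-type replicate 1. So were the T cell sums, the macrophage sums given below and, among the members, Marco, Cd5l and, by little, Csf1r. Erythroid markers read lower by mean in 8 of 8, with sums of 24348 and 139454 against 121782 and 107619, so the sums overlapped. Knockout replicate 1 was the lowest array for all 8, while knockout replicate 2 had the highest sum. Knockout replicate 2 lay above both wild-type arrays for Rhd, Klf1, Rhag, Epb42 and Ank1, though not for Urod, Slc4a1 and Alas2. Platelet markers read higher in 4 of 4 and markers of stroma and endothelium in 5 of 7, with sums of 13021 and 12799 against 14036 and 4849, and of 38651 and 31475 against 36710 and 33478. Leaving out wild-type replicate 1 moved the median log2 difference of monocyte markers from 0.61 to 0.0064, with 2 of 4 then higher. The median moved from 1.22 to 1.98 for neutrophil, from 1.34 to 1.97 for platelet and from -1.9997 to -1.17 for exocrine pancreas markers. The medians of the other marker lists moved by less. The summed intensity of the macrophage genes themselves, on the brightest probe set of each of the 10, was 75628 and 72229 in the knockout arrays, compared with 87042 and 84128 in the wild-type arrays. That sum is carried by the brightest members, Csf1r, Spic, Marco and Cd5l, of which Marco and Cd5l had the larger gaps.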

How the data were processed

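The values deposited by the authors are linear 1-colour intensities, 1 per probe set and array, and how they were summarised and scaled is unstated in the labels. Array medians lay between 798.6 and 854.6, so values were used without further scaling. The 66 control probe sets were left out. Values below the pooled 25th percentile, an intensity of 185, were raised to it and log2 was taken, which understates differences of dim genes. Probe sets with a mean above the 40th percentile were tested with limma 3.58.1 in R 4.3.3 (lmFit, eBayes with an intensity trend), two-sided, with Benjamini-Hochberg adjustment at 0.05. Symbols came from the platform annotation, updated by gene identifier. Of 12422 probe sets 10833 had 1 symbol, 396 several and 1193 none.

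The members and gene lists were chosen with earlier results of these data known. All members are named, with up to 3 genes of each related list by smallest p and Spi1, Axl and Gas6 for their link to members. On simulated data with 7453 probe sets, 6% of 2-fold, 76% of 4-fold and 100% of 16-fold changes were recovered. The simulation gave all probe sets and arrays the same normal spread, with no outlying array and no floor. These shares are thus not the power of the real comparison. The alternatives changed the scaling, the floor, the filter or the variance model, averaged probe sets, blocked on replicate number or left out an array. Figures were drawn with matplotlib 3.10.9.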

Additional observations from a re-analysis of the deposited data

How the results depend on the processing

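No macrophage probe set passed the threshold over all tested probe sets under any of the 14 alternatives run. Msr1 and Mertk were not tested with the filter at the 60th percentile. Adgre1 and Msr1 were not tested with probe sets averaged per gene. Over all genes the count of 4 was 0 without the filter, where 339 had an unadjusted p under 0.05, 36 with the replicate number as a block, and 3 to 13 with 1 array left out. The count of macrophage probe sets with an unadjusted p under 0.05, which was 0, was 1 without the filter (Cd5l), 1 with the replicate block (Adgre1, adjusted p = 0.188), and 0 to 4 with 1 array left out. The labels do not pair samples by replicate number, and same-numbered deviations correlated at 0.0389, so this block has no stated basis. The median difference of 0.06 ranged from -0.40 to 0.20 with 1 array left out. Marco, Cd5l and Spic kept their direction in all 14. Csf1r turned to 0.018 with quantile normalization and 0.0076 with probe sets averaged per gene, and Mertk to -0.046 with the 40th percentile floor. With 1 array left out, Adgre1 ranged from -0.47 to 3.83, Mrc1 from -0.45 to 1.22, Mertk from -0.50 to 0.64, Msr1 from -0.45 to 0.57 and Cd68 from -0.31 to 0.16. The cause of these turns was not tested. Low signal limits Siglec1 and the second Adgre1 and Cd68 probe sets, which lay below the floor on all arrays.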
